A study of Mus musculus with 4 samples.

Results

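Diaphragm-only open regions were the peaks of the diaphragm ATAC-seq list that had no peak of the EDL, quadriceps or soleus list overlapping them or lying within 500 bp, edge to edge. They were selected on measured values, namely the presence or absence of peaks in the 4 lists, and numbered 2112 of 21582 diaphragm peaks (9.79%; 95% Wilson interval 9.40 to 10.2), or 2112 of the 120839 peaks in all 4 lists. ATAC-seq uses the Tn5 transposase, which inserts sequencing adapters where DNA is not packed in nucleosomes, so that a peak marks accessible chromatin. The 4 libraries came from frozen diaphragm, extensor digitorum longus (EDL), quadriceps and soleus of wild type C57BL/6 mice kept sedentary, with no treatment. Each muscle had 1 library, which the labels call pooled without giving the number of mice. There was therefore no replicate error, no test between muscles was possible, and every interval below covers counting error only. Peaks were not replicates of a muscle.

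The diaphragm is the thin sheet of skeletal muscle that drives breathing. It contracts throughout life, mixes slow and fast fibres, and forms from somite-derived muscle cells that migrate into connective tissue of the pleuroperitoneal folds. Both of its faces are covered by mesothelium, and its abdominal face lies against the liver. Enhancers, the distal regulatory elements that make up much of the accessible genome, are more specific to a cell type than promoters are. The labelled tissue was checked against 22 skeletal muscle identity genes, of which 19 had at least 1 diaphragm peak, among them the actin gene Acta1 with 2 and the titin gene Ttn with 6. Tpm2, Myod1 and Myf5 had none in the diaphragm list. The 22 genes together had 46 peaks in diaphragm, 92 in EDL, 107 in quadriceps and 88 in soleus. The whole lists held 21582, 30136, 40337 and 28784 peaks. In the other lists, 9.60% of EDL peaks, 26.5% of quadriceps peaks and 13.9% of soleus peaks met the same rule against the remaining 3 lists.

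Sequences are given on the mm10 build, read from the RefSeq GRCm38.p6 assembly. Capitals mark matches, on either strand, to the motif of MEF2 (by name), to the motif AGATAA of the factors named GATA, to CAAAGTC for the nuclear receptor HNF4, to TTGCNNAA for C/EBP factors, to TGTTTAC for FOX factors and to TGTTTGC for a FOXA variant. A match is a run of letters and not a bound site. The intronic and intergenic regions with the highest scores that were not repeats and overlapped no annotated exon along their width, and the promoter with the highest score, are shown because they carried the strongest signal of their kind.
Lpin1 (intron 1, chr12:16591523-16591755, plus strand): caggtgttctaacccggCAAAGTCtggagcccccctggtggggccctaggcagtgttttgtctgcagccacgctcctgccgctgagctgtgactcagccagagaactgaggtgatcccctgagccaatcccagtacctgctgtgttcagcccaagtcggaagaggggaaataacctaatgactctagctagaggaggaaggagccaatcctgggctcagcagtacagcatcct
2810410L24Rik (intergenic, chr11:120184854-120185086, plus strand): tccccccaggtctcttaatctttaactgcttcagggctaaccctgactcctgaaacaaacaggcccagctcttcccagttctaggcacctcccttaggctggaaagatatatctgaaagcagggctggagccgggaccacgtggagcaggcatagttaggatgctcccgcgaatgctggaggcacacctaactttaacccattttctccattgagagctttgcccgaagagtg
Prss52 (intron of Msra, chr14:64156172-64156404, plus strand): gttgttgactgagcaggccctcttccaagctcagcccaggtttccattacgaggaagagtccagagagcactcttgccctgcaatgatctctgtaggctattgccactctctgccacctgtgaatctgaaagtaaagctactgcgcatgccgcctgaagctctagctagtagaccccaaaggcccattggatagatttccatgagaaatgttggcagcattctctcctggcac
F11r (promoter, bases upstream of the TSS, chr1:171437388-171437560, plus strand): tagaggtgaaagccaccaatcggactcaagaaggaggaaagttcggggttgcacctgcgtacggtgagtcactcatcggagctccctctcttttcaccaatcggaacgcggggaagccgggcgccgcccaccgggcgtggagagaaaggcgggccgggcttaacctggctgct
The regions at genes of the mesothelium and diaphragm development lists are shown because these lists concern the covering and the development of the diaphragm. Assignment was by nearest gene and does not show in which cells a region was open.
Meis2 (intron, chr2:115936953-115937185, plus strand): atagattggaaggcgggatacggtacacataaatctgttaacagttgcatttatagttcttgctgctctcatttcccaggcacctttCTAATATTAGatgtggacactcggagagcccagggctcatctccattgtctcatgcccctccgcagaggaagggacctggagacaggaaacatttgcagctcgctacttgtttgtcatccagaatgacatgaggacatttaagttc
Krt18 (intergenic, chr15:102016906-102017138, plus strand): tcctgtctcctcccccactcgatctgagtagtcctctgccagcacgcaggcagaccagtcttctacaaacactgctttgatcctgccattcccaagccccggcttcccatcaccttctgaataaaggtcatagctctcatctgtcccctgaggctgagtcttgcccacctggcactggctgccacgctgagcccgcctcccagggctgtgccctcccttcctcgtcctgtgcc
Gli2 (intergenic, chr1:119209814-119210046, plus strand): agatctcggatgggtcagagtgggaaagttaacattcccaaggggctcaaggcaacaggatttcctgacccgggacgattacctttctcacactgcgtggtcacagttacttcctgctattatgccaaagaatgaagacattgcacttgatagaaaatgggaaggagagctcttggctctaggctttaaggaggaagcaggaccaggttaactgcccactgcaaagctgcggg
Regions at hepatocyte genes are shown because this list departed furthest from the rest, and they were chosen after their values were seen.
Serpina1a (promoter, chr12:103863740-103863972, plus strand): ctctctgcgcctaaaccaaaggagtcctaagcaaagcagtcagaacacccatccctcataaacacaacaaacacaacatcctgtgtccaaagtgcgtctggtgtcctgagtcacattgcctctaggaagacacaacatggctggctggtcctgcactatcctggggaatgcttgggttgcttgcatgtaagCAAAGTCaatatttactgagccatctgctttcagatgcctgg
Alb, proximal of its regions (intergenic, chr5:90425257-90425489, plus strand): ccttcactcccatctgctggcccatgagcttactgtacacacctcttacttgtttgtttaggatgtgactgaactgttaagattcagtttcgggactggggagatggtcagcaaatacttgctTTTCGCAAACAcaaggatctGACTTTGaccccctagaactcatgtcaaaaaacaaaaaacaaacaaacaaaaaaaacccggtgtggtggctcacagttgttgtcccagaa
Apob (intron 2, chr12:7978529-7978761, plus strand): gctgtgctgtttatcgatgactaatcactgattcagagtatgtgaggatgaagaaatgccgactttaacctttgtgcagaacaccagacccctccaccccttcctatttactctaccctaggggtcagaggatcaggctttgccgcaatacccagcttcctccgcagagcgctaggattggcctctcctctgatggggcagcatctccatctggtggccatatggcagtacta
The Lpin1 and Serpina1a regions each held 1 HNF4 match. The proximal Alb region held 1 HNF4, 1 C/EBP and 1 FOXA variant match within a short stretch. The Meis2 region held 1 MEF2 match. The regions at Krt18, Gli2, Prss52, 2810410L24Rik, F11r and Apob held no match to any of these letters.

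Diaphragm-only peaks were weak peaks. The peak score is the read signal that HOMER gave to each peak, and diaphragm-only peaks ranged from 3.73 to 14.8 with a median of 4.83, against a median of 8.06 for the other 19470 diaphragm peaks. Their median score percentile within the diaphragm list was 13.2 (quartiles 6.36 and 26.5, highest 86.8), against 55.1 for the others. Scores under 10 moved in steps of 0.101. If a step is 1 read, the median diaphragm-only peak held 48 reads (Poisson interval 35.4 to 63.6), and the weakest peak in the list held 36. Of the lowest-scored decile of the list, 37.6% were diaphragm-only (857 of 2280), of decile 5, 5.70%, and of the highest-scored decile 0 of 2173. The lowest score in the list was 3.63 in the diaphragm and lower in the others, at 3.27 in EDL, 3.20 in quadriceps and 3.06 in soleus. A region missing from another list may still have held signal under that list's minimum.

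**Figure D1:**
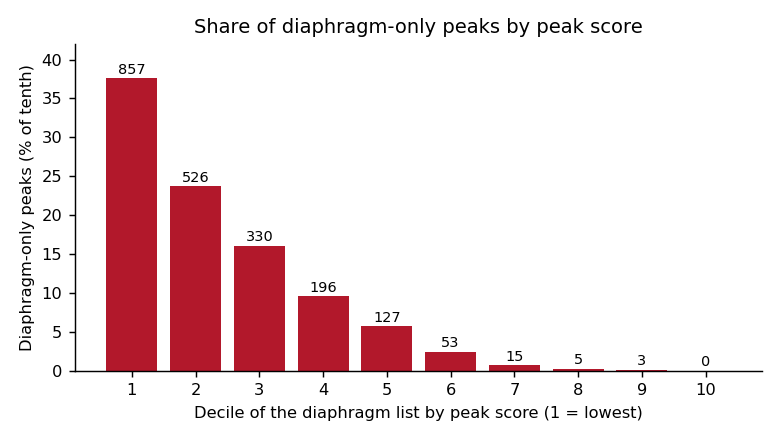
Share of diaphragm-only peaks (y axis, percent) in each decile of the diaphragm list ordered by peak score (x axis, 1 is the lowest), with the number of diaphragm-only peaks above each bar. The share falls from 37.6% in the lowest decile to 0 in the highest.

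The gap to the closest peak of another list exceeded 500 bp by the rule, and no gap of a reference set is given here. At the median, 12137 bp separated a region from the closest limb muscle peak. For 97 regions (4.59%) the gap was at most 1000 bp, for 939 (44.5%) it was over 5 and up to 20 kb, and for 303 (14.3%) it was over 50 kb. Next to the limit, the peaks kept with the smallest gaps were at Cdh2 (504 bp), Ptges2 (505 bp) and Pde1a (510 bp), and the peaks left out with the largest gaps were at Slc39a9 (498 bp), Arhgap26 (480 bp) and Smlr1 (475 bp). Scores ran from 4.23 to 4.94 for those left out and from 4.83 to 7.76 for those kept.

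The strongest diaphragm-only region was in intron 1 of Lpin1, the phosphatidate phosphatase lipin 1 that acts in triglyceride synthesis, with a score of 14.8 (percentile 86.8) and 1869 bp upstream of the annotated start. The closest limb muscle peak was 1648 bp away. Next came a region annotated to intron 1 of Ubtf, a ribosomal RNA gene transcription factor, which overlapped an exon of the gene and scored 13.3. Regions 2449 bp upstream of Txnip, an inhibitor of thioredoxin, and in the 5′ UTR of Myc, a growth-promoting transcription factor, scored 11.3 and 10.6. An exon of Klf4, another transcription factor, held a region with a score of 9.77. Other regions of the leading 15 were at F11r, 2810410L24Rik, Prss52 (in an intron of Msra), Sema4c, Bhlhe41, Uvrag (in an intron of Dgat2, a triglyceride synthesis enzyme), Zfp982 (100% soft-masked repeat), Mir6918 (in an intron of Nipsnap1) and C1qtnf1, with scores from 9.37 to 11.3. Of all 2112 regions, 1044 (49.4%) had their midpoint inside a protein-coding gene body.

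The regions with the highest scores among those over 50 kb from any other list's peak included an intron of Meis2 (score 8.26, gap 91.0 kb), which encodes a homeodomain cofactor of Hox proteins. They also included introns of Mylk, the smooth muscle myosin light chain kinase (score 7.86, gap 61.8 kb), and of Adgrl3, an adhesion receptor (score 7.65, gap 453 kb). An intergenic region 135577 bp upstream of Dio2, a thyroid hormone deiodinase, was also among them (score 7.55, gap 71.5 kb).

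By annotation, diaphragm-only regions were mostly distal. Intergenic regions made up 46.5% (983; interval 44.4 to 48.7), introns 39.5% (834) and promoters, which HOMER sets around a transcription start site (TSS), 8.19% (173; interval 7.10 to 9.44). Among the other diaphragm peaks 44.9% were promoters, a difference of −36.7 percentage points (Newcombe interval −38.0 to −35.2). Where both sets were limited to the lower 50% of the list by score, the promoter shares were 8.10% and 19.7% (difference −11.6, interval −13 to −10.1). Outside promoters, 15.3% of diaphragm peaks were diaphragm-only. The median distance to the nearest TSS was 23126 bp, against 1021.5 bp for the other diaphragm peaks, and 29.2% of the regions lay over 50 kb away.

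Promoters were nevertheless a larger part of the diaphragm-only regions than of the equivalent sets of the limb muscles. The promoter share was 3.91% of EDL-only, 5.49% of quadriceps-only and 3.47% of soleus-only peaks. The diaphragm-only share was higher by 4.28 (interval 2.95 to 5.69), 2.71 (1.52 to 4.02) and 4.72 percentage points (3.47 to 6.07). Introns were a smaller part, at 39.5% against 48.5%, 48.3% and 47.5%. The rest of each list differed in the same directions. Among the other peaks, promoters made up 44.9% in diaphragm, 33.6% in EDL, 32.7% in quadriceps and 36.5% in soleus. Introns made up 25.2%, 32.8%, 33.3% and 30.7% of them. A larger promoter share was therefore not particular to the diaphragm-only set.

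**Figure D2:**
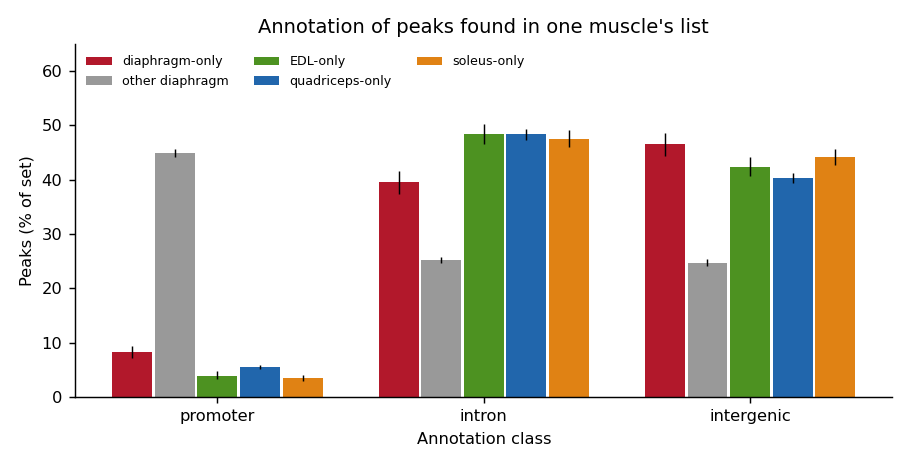
Share of peaks (y axis, percent of each set) in the promoter, intron and intergenic classes (x axis) for peaks found in one muscle's list only and for the other diaphragm peaks; bars are shares and lines are 95% Wilson intervals. Diaphragm-only peaks had a promoter share of 8.19%, under the 44.9% of other diaphragm peaks and over the 3.47% to 5.49% of the limb muscle sets.

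Of the promoter regions, the highest-scored was the promoter of F11r, which encodes the junctional adhesion molecule JAM-A of epithelia and endothelia, with a score of 11.3 and centred 57 bp upstream of the TSS. Sema4c, a semaphorin (10.2), Bhlhe41, a circadian repressor (10.1), and Plod2, a collagen lysyl hydroxylase (8.76), followed. Bhlhe41 also had a promoter peak in the soleus list, outside the 500 bp limit.

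Some of the other promoter regions were at genes of liver metabolism. They were picked after their values were seen, with no list, count or test behind the choice. They included Tdo2, which degrades tryptophan (score 7.65), Arg1, the urea cycle arginase (6.24), Mat1a, the hepatic methionine adenosyltransferase (5.74), and Pon1, a secreted paraoxonase (5.74). Enzymes and transporters of hepatic glucose handling were present as Gys2, liver glycogen synthase (5.64), Slc2a2, the glucose transporter GLUT2 (5.54), and Fbp1, fructose bisphosphatase (5.44). Slc27a5, a bile acid CoA ligase (5.34), Abcc2, a canalicular export pump (5.14), and Fetub, a plasma protein (5.04), had promoter regions as well.

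The hepatocyte list stood furthest from the background of 9.79%. Of the 13 diaphragm peaks nearest to its 15 genes, 9 were diaphragm-only (69.2%; interval 42.4 to 87.3). In the other lists the corresponding counts were 2 of 11 in EDL, 2 of 11 in quadriceps and 2 of 10 in soleus. The summed score of all peaks at these genes was 74.4 in diaphragm, 53.4 in EDL, 63.3 in quadriceps and 58.1 in soleus, and that of peaks found in only that list was 47.7, 8.18, 9.22 and 8.99.

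Alb, which encodes serum albumin, had 2 diaphragm peaks, 46602 and 35497 bp upstream of its TSS, with scores of 4.94 and 4.33, and no peak in the other 3 lists. Cyp2e1, a cytochrome P450, had a promoter region with a score of 6.24, and Hnf4a, a nuclear receptor that directs hepatocyte genes, had one with a score of 4.83 centred 25 bp upstream of the TSS. Serpina1a, an alpha-1 antitrypsin gene, had a promoter region with a score of 4.83. These genes had no peak in the limb muscle lists. Apob, the apolipoprotein of very low density lipoproteins, had a region in intron 2, 968 bp downstream of the TSS, with a score of 5.74. The only other peak at Apob was an EDL peak with a score of 3.75, 121602 bp away. Tat, tyrosine aminotransferase, had a region 10836 bp upstream with a score of 5.24, and soleus had a separate Tat peak with a score of 3.92.

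At Apoa1, which encodes the main apolipoprotein of high density lipoproteins, 2 of 4 diaphragm peaks were diaphragm-only, and both lay in introns of the neighbouring gene Sik3, 79124 and 65002 bp upstream. One of them had a gap of 635 bp to a soleus peak, close to the limit. Foxa2 had 2 diaphragm peaks, both shared with other lists. No diaphragm peak was assigned to Apoc3, Ttr, Foxa1, Foxa3, Fgb or Ahsg as the nearest gene, but the diaphragm-only promoter region assigned to Gm16090 (5.24) lay on an exon of Ttr, the transthyretin gene, and was not counted with the list. By nearest gene, 7 of 15 genes carried a diaphragm-only region. What part hepatocyte chromatin had in the diaphragm-only set was not tested.

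**Figure D3:**
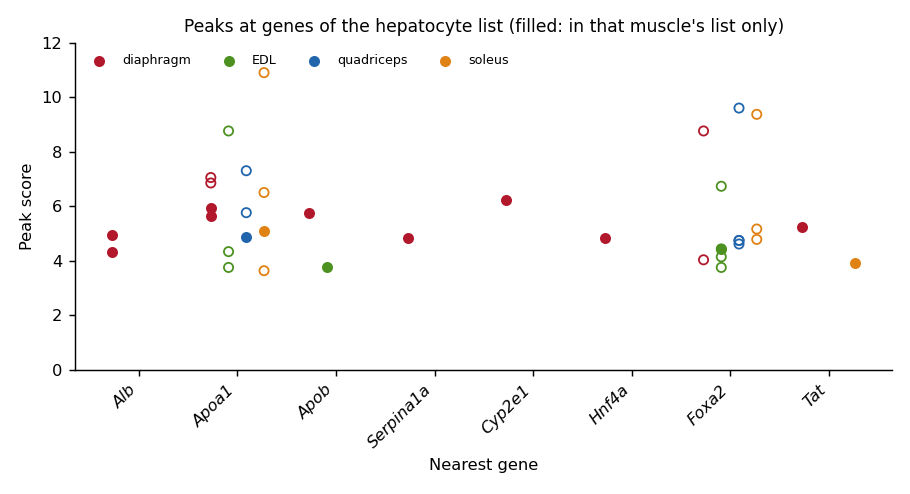
Peak score (y axis) of every peak assigned to a gene of the hepatocyte list that had a diaphragm peak (x axis), coloured by muscle; filled points are peaks found in that muscle's list only and open points are shared. Alb, Serpina1a, Cyp2e1 and Hnf4a have diaphragm points alone, with scores from 4.33 to 6.24.

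Gene families with liver members, chosen after the nearest genes had been seen, gave further counts. Of 10 diaphragm peaks nearest to Serpina genes, which encode secreted protease inhibitors, 9 were diaphragm-only, with scores from 4.23 to 5.84, whereas EDL, quadriceps and soleus had 2 peaks each. Promoter regions of Serpina1a, Serpina1b, Serpina1c and Serpina1d were all among them. These genes are near-identical copies, so reads could be assigned to either copy and the 4 promoters cannot be counted as separate observations. Of 39 diaphragm peaks nearest to cytochrome P450 genes, 14 (35.9%) were diaphragm-only. The counts of peaks found in only the given list were 10 of 43 in EDL (23.3%), 15 of 51 in quadriceps (29.4%) and 6 of 37 in soleus (16.2%). Over the whole lists these shares were 9.79% in diaphragm, 9.60% in EDL, 26.5% in quadriceps and 13.9% in soleus. Cyp2d10 had 3 of the diaphragm-only regions, within 16.5 kb. All 3 diaphragm peaks nearest to Ugt genes, whose products conjugate glucuronic acid, were diaphragm-only, and soleus had 3 of 4.

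The remaining lists lay nearer to the background. Of the diaphragm peaks at adipocyte genes 5 of 19 were diaphragm-only (26.3%; interval 11.8 to 48.8). These were at Adipoq, which encodes adiponectin (score 4.23), Cidec, a lipid droplet protein (5.34), the promoter of Pparg, the adipogenic nuclear receptor (5.34), Cebpa (6.24) and Dio2 (7.55). Pparg also had a promoter peak in the quadriceps and soleus lists, outside the 500 bp limit. At adipocyte genes, the counts of peaks found in only the given list were 0 of 20 in EDL, 6 of 28 in quadriceps (21.4%) and 2 of 16 in soleus (12.5%). At the mesothelium genes 4 of 18 were diaphragm-only (22.2%; interval 9.0 to 45.2), with summed scores over all peaks of 125 in diaphragm, 156 in EDL, 239 in quadriceps and 144 in soleus. Peaks found in only the given list were 3 of 24 in EDL (12.5%), 17 of 39 in quadriceps (43.6%) and 4 of 21 in soleus (19.0%). Each of these shares was also over that list's overall share. Lrrn4 had 2 regions (6.14 and 5.44) and no peak in the other lists, Krt18, a keratin, had 1 (5.64) and also none elsewhere, and Tbx18 had 1 (4.13). The defining mesothelial genes Wt1, Msln and Muc16 had no diaphragm peak, and Upk3b had 1 shared peak. The part of mesothelium in the result was not tested.

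Genes of diaphragm development accounted for 9 of 58 (15.5%; interval 8.38 to 26.9), against 17.1% in EDL, 39.8% in quadriceps and 24.2% in soleus. The count was 3 of 36 (8.33%) within 50 kb of the TSS and 15 of 55 (27.3%) when every list was limited to its 20000 highest-scored peaks. Besides 2 regions at Meis2, they were at Gli2, a Hedgehog effector (5.54), Zfpm2, a GATA cofactor required for diaphragm muscularization (4.94), Hgf, the growth factor that guides migrating muscle precursors (4.63), Gata4 (4.53), Eln, elastin (4.33), Efnb1 (4.33) and Tcf4 (5.74). Only the intronic Meis2 region exceeded the median percentile of the diaphragm list. Of the Hox genes of paralogous groups 1 to 8, Hoxb2 alone had a diaphragm-only region (5.54), which was 1 of 6 peaks, and groups 9 to 13 had 0 of 1. The limb identity list had 2 of 12, at En1 (5.74) and Pitx1 (5.14).

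At genes of the muscle fibre itself the share was at or under that of the whole list. Slow fibre genes had 5 of 53 (9.43%) and fast fibre genes 3 of 36 (8.33%). The slow fibre regions were 3 at Ppargc1a, the coactivator PGC-1 alpha (4.53 to 5.04), 1 at Mb, myoglobin (7.35), and 1 at Myom3, an M-band protein (6.14). The fast fibre regions were 2 at Maf (5.74 and 4.43) and 1 at Ldha (5.84). Skeletal muscle identity genes had 2 of 46 (4.35%; interval 1.20 to 14.5), a region in an intron of Ccdc141 nearest to Ttn (7.76) and one upstream of Pax7 (4.23). At identity genes, the shares of peaks found in only the given list were 4.35% in EDL, 14.0% in quadriceps and 11.4% in soleus. Each was also under that list's overall share of 9.60%, 26.5% and 13.9%. In the same order, they were 4.84%, 21.4% and 34.0% at slow fibre genes and 13.9%, 25.5% and 8.62% at fast fibre genes. The summed score of all peaks at the skeletal muscle identity genes was 342 in diaphragm, 897 in EDL, 892 in quadriceps and 787 in soleus. The neuromuscular junction list had 1 of 12, at Chrna1 (4.13).

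Of the vascular, connective tissue, blood, organ and nerve lists, endothelium had 4 of 42 (9.52%), with 2 regions at Kdr, 1 at Pecam1 and 1 at the promoter of Sox18, which scored 6.85. Smooth muscle and pericyte genes had 2 of 13, at the promoter of Pdgfrb (6.04) and at Abcc9 (4.73). Fibroblast and tendon genes had 1 of 17, at Ly6a (4.23), Schwann cell and nerve genes 1 of 7, at Mbp (6.75), and heart and lung genes 2 of 9, at Tnnt2 (5.74) and Scgb1a1 (5.24). Leukocyte genes had 0 of 9, for which the interval reached 29.9%. With these counts, only the hepatocyte and adipocyte intervals excluded 9.79%. The adipocyte interval did so on 5 regions, and within 50 kb of the TSS it did not (4 of 17, 23.5%; interval 9.56 to 47.3).

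**Figure D4:**
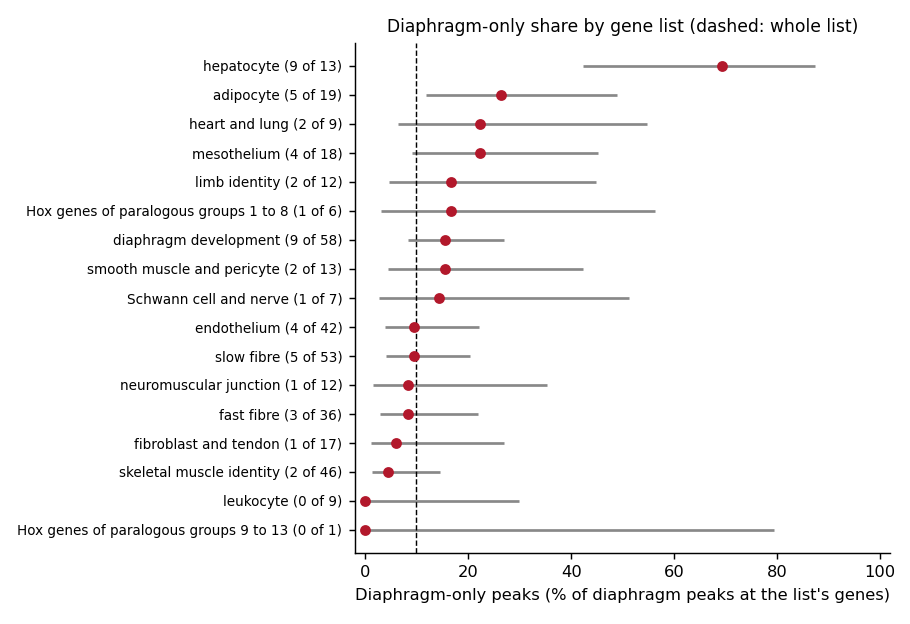
Diaphragm-only peaks as a percentage of all diaphragm peaks at the genes of each of 17 lists (x axis), with 95% Wilson intervals and the counts beside each name; the dashed line is the 9.79% of the whole diaphragm list. The hepatocyte list is at 69.2% with an interval from 42.4 to 87.3.

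The regions were spread over 1839 nearest genes, of which 1604 had 1 region and 33 had 3 or more. Nedd4, a ubiquitin ligase, Wdr5, Rbm47, Dynlrb2 and Aldh1a1 had 4 each. Aldh1a1 encodes a retinal dehydrogenase, and all 4 of its diaphragm peaks were diaphragm-only, including the promoter (5.24). EDL had 1 peak at the gene, also annotated as a promoter but outside the 500 bp limit, and quadriceps and soleus had 0. The Aldh1a1 region 45827 bp downstream of the TSS was 95.7% soft-masked repeat. All 4 Wdr5 regions were intergenic, between 45616 and 67153 bp downstream of its TSS and within 21.8 kb of each other, with scores from 4.94 to 6.45. Rbm47, an RNA-binding protein, had 3 intronic regions and its promoter (6.24). Lpin1, Slc16a1, 2010009K17Rik, Plekha6, 4922502H24Rik, Dapk1 and Spata13 had 3 each and the highest summed scores of that group. Most regions stood alone, since 1902 (90.1%) had no other diaphragm-only region within 20 kb, and 9 chains held 3 or more.

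On the X chromosome 11 of 393 diaphragm peaks were diaphragm-only (2.80%; interval 1.57 to 4.94), whereas the share on the autosomes ran from 5.79% on chromosome 7 to 12.7% on chromosome 13. The X shares of the other lists were 7.28% in EDL, 16.4% in quadriceps and 8.09% in soleus, each also under that list's overall share.

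Outside promoters, the sequences of the 1938 diaphragm-only regions on assembled chromosomes differed from those of the 10722 other diaphragm peaks. Their mean GC content was 49.6% ± 5.99 (SD over regions) against 53.9% ± 7.71, and 2.63% against 1.22% were at least 50% soft-masked repeat. The limb muscle lists had differences of the same direction, with a mean GC content of 49.5% against 52.7% in EDL, 50.4% against 53.3% in quadriceps and 50.1% against 53.3% in soleus, and repeat shares of 2.74% against 1.54%, 4.73% against 1.56% and 3.98% against 1.30%. The HNF4, C/EBP, FOX and FOXA variant motifs were added after the nearest genes of these regions had been seen. Matches to these 4 were more frequent. HNF4 was present in 7.84% against 3.38% (difference 4.47 points, interval 3.30 to 5.79, 4.06% of all), C/EBP in 17% against 10.6% (6.36 points, 4.65 to 8.19, 11.6% of all) and FOX in 6.97% against 3.8% (3.17 points, 2.05 to 4.44, 4.28% of all). The FOXA variant was present in 8.20% against 4.99%. GATA was present in 14.0% against 7.66% (6.38 points, 4.81 to 8.07, 8.63% of all). At least 1 of HNF4, C/EBP, FOX and the FOXA variant was present in 658 regions (34.0%) against 20.5% of the others.

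Motifs of muscle regulators were less frequent. MEF2 was present in 1.75% of the regions against 5.28% (difference −3.52 points, interval −4.19 to −2.73), and the E-box CAGCTG, which myogenic factors bind, in 18.7% against 25.5% (−6.81, −8.68 to −4.83). The ETS motif CCGGAAG was present in 1.19% against 3.65% and the AP-1 motif TGACTCA in 8.36% against 10.2%. The nuclear receptor half-site AAGGTCA was present in 8.41% against 6.12%, RUNX (TGTGGTT) in 5.88% against 4.45% and NF-Y (CCAAT) in 29.2% against 25.8%. The AP-1 difference (−1.09 points in both cases) had an interval that included 0 in the central 150 bp and with every list limited to its 20000 highest-scored peaks. The same held for RUNX in the central 150 bp (0.52) and in the lower 50% of the list (0.96), and for the half-site with the 20000 highest-scored (0.46, interval −0.54 to 1.54). Over the whole peaks, intervals of the difference included 0 for NFAT (TGGAAA), TEAD (GGAATGT), MEF3 (TCAGGTTTC) and CTCF (by name). In the lower 50% of the list, the intervals excluded 0 for NFAT (−3.72, −5.79 to −1.56) and CTCF (−1.33, −2.38 to −0.13). With overlap only, that of NFAT also excluded 0 (−2.01, −3.86 to −0.084).

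Peaks found in only 1 limb muscle's list held HNF4, C/EBP, FOX, GATA and NF-Y matches less often than diaphragm-only regions. They held MEF2 and E-box matches more often. These shares were taken in the central 150 bp, where the different peak widths do not matter. There, the interval of the difference from each limb muscle set included 0 for ETS, AP-1 and RUNX. HNF4 was present in 5.11% of diaphragm-only regions and in 2.48%, 2.28% and 2.53% of EDL-only, quadriceps-only and soleus-only peaks. The difference from EDL-only peaks, whose mean GC content was 49.5%, was 2.62 points (interval 1.52 to 3.81). C/EBP was present in 12.5% against 7.63%, 7.05% and 7.19%, and GATA in 8.93% against 4.72%, 5.41% and 5.30%. NF-Y was present in 20.9% against 17.7%, 17.3% and 17.7%, and each of these differences had an interval that excluded 0. MEF2 was present in 1.08% against 3.20%, 2.45% and 4.63%, the highest share being that of soleus. MEF2 was also less frequent in EDL-only and quadriceps-only peaks than in the other peaks of those lists, at 5.05% and 4.24%. Within the diaphragm-only set the HNF4 share was 8.24% in regions above the median score and 7.47% in the rest, with overlapping intervals. It was 8.29% at gaps up to 5 kb and 7.05% at gaps over 20 kb.

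**Figure D5:**
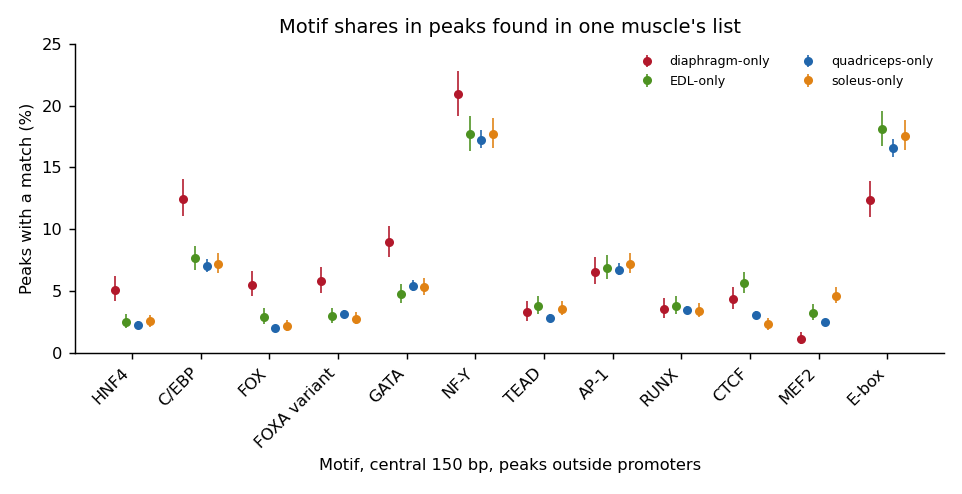
Share of non-promoter peaks with a motif match in the central 150 bp (y axis, percent) for 12 of the 16 motifs (x axis), in peaks found in one muscle's list only; points are shares and lines 95% Wilson intervals. Diaphragm-only peaks sit above the other sets for HNF4, C/EBP, FOX, the FOXA variant, GATA and NF-Y, and below them for MEF2 and the E-box.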

How the data were processed

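ATAC-seq libraries of 4 muscles, 1 per muscle, were analysed from the deposited peak lists. The authors aligned reads to mm10 with Bowtie2, called peaks with HOMER and annotated each to the nearest TSS; per the labels the tools were Bowtie2 and HOMER. The deposited peak score is a read signal within each library, and its total depth is not given in the sources used here. Peak width was 232 bp in diaphragm, 208 in EDL, 188 in quadriceps and 206 in soleus, so a wider peak holds a motif more often.

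Gaps, percentiles, shares and motif matches were computed with Python 3.11.15, pandas 2.3.3, SciPy 1.17.1 and pysam 0.24.0, and checked on simulated data. The detailed annotation column was empty, so a repeat was a peak with at least 50% soft-masked bases in the reference. Of 2112 members, 2111 were on assembled chromosomes. Gene bodies came from GENCODE vM21. Shares have 95% Wilson intervals and differences Newcombe intervals. Sets, gene lists and motifs were chosen with earlier results of these data known, and 4 motifs and 3 families after seeing the nearest genes.

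Named regions were the 15 highest-scored, the 5 highest-scored promoters, the 5 highest-scored with a gap over 50 kb, the 12 genes with most regions, members of the 17 gene lists and the 3 peaks on each side of the limit; others are marked where named, and some that the rule selects are not reported here. Sequences came from regions that overlapped no exon along their width, which left out Ubtf, and at F11r only bases upstream of the TSS were used. Alternatives changed the gap, the score limits, the chromosomes, the repeats, the lists compared and the motif window.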

Additional observations from a re-analysis of the deposited data

How the results depend on the processing

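No paired analysis was possible because each muscle had 1 library. The diaphragm-only share of 9.79% became 11.5% with overlap only, 9.34% with a gap of 1000 bp, 17.8% among the 20000 highest-scored peaks of each list and 0.707% in the upper 50% of the diaphragm list, and 11.3%, 13.3% or 12.3% with the EDL, quadriceps or soleus list not used. In the order overlap only, 20000 highest-scored and upper 50%, the promoter share was 10.6%, 14.9% and 10.5% (10.7% when defined as within 1 kb of a TSS), the intergenic share 44.4%, 41.3% and 31.6%, the median score percentile 16.7, 21.7 and 54.7, the median distance to the TSS 21038, 18549 and 12864 bp, and the mean GC content 50.2%, 51.1% and 52.9%. With the 20000 highest-scored and upper 50%, the repeat share, 2.42% over all regions, was 1.63% and 1.32%, and genes with 3 or more regions, 33 in all, numbered 106 and 0. The upper 50% held 76 regions. The hepatocyte share ran from 61.5% (8 of 13, gap of 1000 bp, an alternative added after seeing the data) to 77.8% (7 of 9, within 50 kb of the TSS). The MEF2, GATA, HNF4, C/EBP and FOX differences kept their direction, with intervals that excluded 0, under all 5 motif alternatives, whereas the AP-1, RUNX and nuclear receptor half-site intervals came to include 0 under 2, 2 and 1 of them. Differences that changed sign were NFAT (0.56 points), TEAD (−0.073) and CTCF (3.33) with the 20000 highest-scored, and MEF3 (0.026) and CTCF (0.091) in the central 150 bp. Of these, only CTCF with the 20000 highest-scored had an interval that excluded 0 (2.34 to 4.40). The cause was not tested. With 1 library per muscle and a median of 48 reads per region, absence from another list could not be told apart from signal below its minimum.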
